A study of Caenorhabditis elegans with 8 samples.

Results

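The wild-type hermaphrodite of Caenorhabditis elegans on day 5 of adulthood is described here through the 2 control libraries of a series of 8. The control libraries were taken by their label, not by any measured value. Both came from strain N2, grown on bacteria that carry the empty RNAi vector L4440, so they went through the feeding procedure without a worm gene being targeted. Synchronized worms were put on this food as young adults, and whole animals were collected at 5 days of adulthood. The other 6 libraries, 3 of vab-3 isoform A RNAi and 3 of isoform C RNAi in the same strain and at the same age, serve only to show how far replicate libraries of 1 group lie apart. No treatment is compared.

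The control libraries carry the replicate numbers 3 and 1, and the labels do not say whether they came from separate cultures. A difference between them can therefore be biological or technical. Library 3 held 30446927 counts and library 1 held 36511475 counts over the 46739 genes of the table. With 1 library on each side there is no test, so every difference is given as a ratio of library 3 over library 1 with an exact 95% counting interval, which covers counting error only. The chi-square per degree of freedom between them was 32.3, so they were not 1 library deposited again.

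The adult hermaphrodite is a body of soma wrapped around a large germline. Its intestine makes vitellogenins, the yolk proteins, and secretes them into the body cavity, where growing oocytes take them up through the receptor RME-2. Oocytes also store the messages and proteins that the embryo uses before its own genes are switched on, and fertilized eggs develop for some time in the uterus, so RNA of a whole animal holds intestine, germline, oocytes and embryos together. In such bulk RNA, fewer cells of a type and less RNA per cell cannot be told apart.

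In day-5 control worms the transcriptome was led by the machinery of protein synthesis, by yolk and by oocyte and eggshell products. A gene is called detected where it had at least 1 RPKM (RPM, which is each count scaled to its library total, per kilobase of gene length) in both libraries, and 10777 genes were. These included 10287 of the 19664 protein-coding genes, or 52.3%. The median detected gene stood at 20.6 RPKM in the mean of both libraries, with the 10th percentile at 2.01 RPKM and the 99th percentile at 984 RPKM. Only 107 genes averaged 1000 RPKM or more. The 10 leading genes by RPM held 9.59% of all counts in library 3 and 8.31% in library 1. The 100 leading genes held 23.1% in library 3 and 21.2% in library 1.

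The gene with the highest level was eef-1A.1, which encodes the elongation factor that brings aminoacyl-tRNA to the ribosome. It lies on chromosome III from 6970026 to 6971712 on the minus strand (build WBcel235) and had 7835 RPKM in library 3 and 8046 RPKM in library 1, a mean of 7940 ± 149 (SD, n = 2). The next was sip-1, a small heat shock protein of the germline and embryo, on chromosome III from 10506106 to 10506801 on the minus strand. Its level was 4563 RPKM in library 3 and 4466 RPKM in library 1. Close behind came the yolk protein gene vit-6, on chromosome IV from 8261157 to 8266459 on the plus strand, with 5164 RPKM in library 3 and 3848 RPKM in library 1. The values of sip-1 and vit-6 overlap, so their order is not settled by these libraries.

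**Figure D1:**
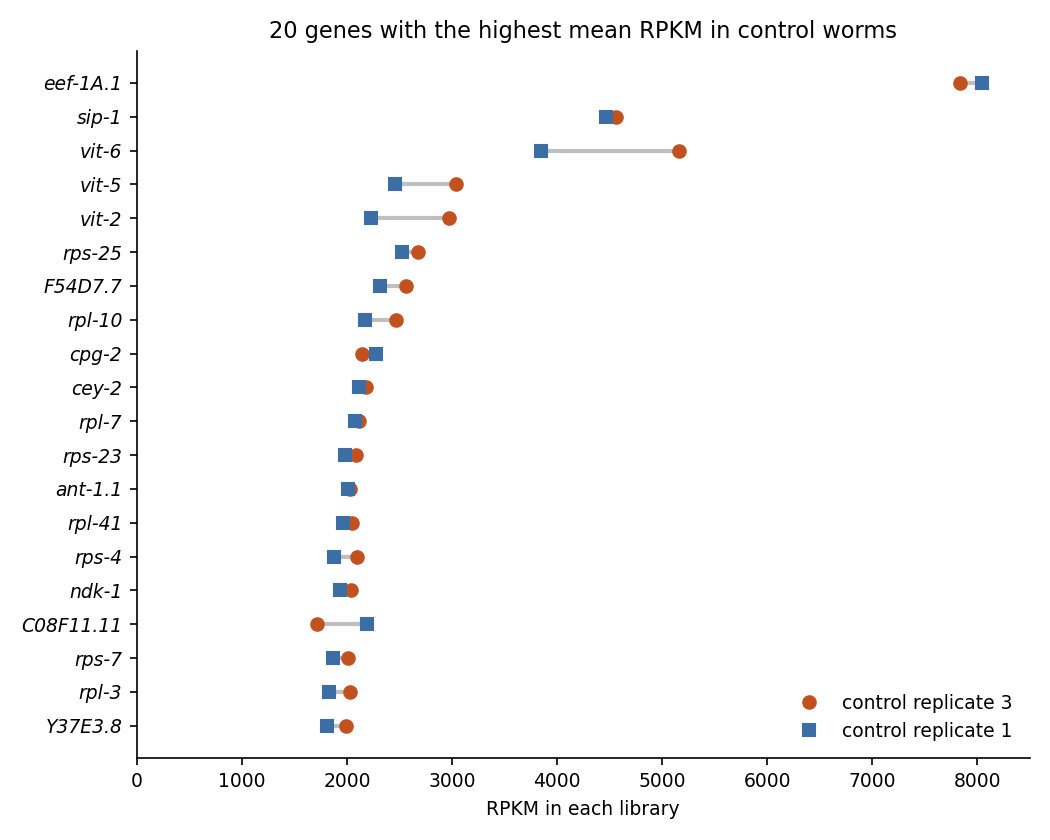
RPKM of the 20 genes with the highest mean RPKM, in control replicate 3 (circles) and control replicate 1 (squares), each point 1 library and each grey line the gap between them. eef-1A.1 stands apart at 7835 and 8046 RPKM, and the 3 yolk genes vit-6, vit-5 and vit-2 show the widest gaps, with library 3 higher.

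Below these, the levels fell into a narrow band. The genes ranked 6 to 20 had means between 1900 and 2598 RPKM. The band held the ribosomal protein genes rps-25, F54D7.7 (rpl-41.2 in current naming), rpl-10, rpl-7, rps-23, rpl-41 (now rpl-36.A), rps-4, rps-7 and rpl-3, together with Y37E3.8. It also held cpg-2, a chitin-binding proteoglycan of the eggshell, with 2145 RPKM in library 3 and 2275 RPKM in library 1. cey-2, a cold-shock domain RNA-binding protein of the germline, had 2185 RPKM in library 3 and 2113 RPKM in library 1. The mitochondrial ADP/ATP carrier gene ant-1.1 had 2024 RPKM in library 3 and 2014 RPKM in library 1, and the nucleoside diphosphate kinase gene ndk-1 had 2039 RPKM in library 3 and 1934 RPKM in library 1. Within this band the widest gap was that of C08F11.11 (now ule-4), with 1711 RPKM in library 3 and 2191 RPKM in library 1. Of the top 100 genes by RPKM, 61 encode cytosolic ribosomal proteins. Among the 20 leading genes, 8 overlap another annotated gene, but in none of them did the overlapping gene exceed 0.1 times its RPKM.

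Yolk genes, with 6 members, held nearly as many counts as the 85 ribosomal protein genes. All 6 vitellogenin genes were detected, and 5 of them were among the 100 highest by RPKM. vit-5 had 3041 RPKM in library 3 and 2456 RPKM in library 1, and vit-2 had 2975 RPKM in library 3 and 2228 RPKM in library 1. Lower in the family were vit-4, with 1561 RPKM in library 3 and 1121 RPKM in library 1, and vit-3, with 1396 RPKM in library 3 and 1025 RPKM in library 1. vit-1 came last, with 322 RPKM in library 3 and 275 RPKM in library 1, and its values lay below those of every other member in both libraries. vit-3, vit-4 and vit-5 are close copies, so the division of reads among them is uncertain. Together the family held 7.19% of all counts in library 3 and 5.44% in library 1. All 6 were higher in library 3, with log2 ratios of RPM between 0.23 and 0.48.

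Translation genes made up the other main block. Of 85 cytosolic ribosomal protein genes, 84 were detected, with a median of 1367 RPKM in library 3 and 1211 RPKM in library 1. They held 7.42% of counts in library 3 and 6.66% in library 1. The 10 translation factor genes held 2.48% in library 3 and 2.51% in library 1. Apart from eef-1A.1 they were led by eef-1G, with 1689 RPKM in library 3 and 1699 RPKM in library 1, and by eef-2, the translocation factor, with 1611 RPKM in library 3 and 1607 RPKM in library 1. On a scale per gene length (TPM, computed from the RPKM and averaged over both libraries), ribosomal proteins held 16.14% and yolk 1.88% of the total, so the order of these groups depends on the scale.

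Germline and oocyte genes were all above the detection level. The list of germline stem cell and mitotic zone genes had 12 of 12 members detected, P granules (the RNA-rich granules of germ cells) 13 of 13, meiotic chromosome proteins 21 of 21 and oocyte and maternal RNA regulators 21 of 21. Medians of mean RPKM were 108 for the germline stem cell list, 120 for P granules, 50.02 for meiotic chromosomes and 294 for the oocyte list, against 20.6 over all detected genes. The translational repressor gene gld-1 had 573 RPKM in library 3 and 546 RPKM in library 1. mex-3, which encodes a KH-domain RNA-binding protein, had 356 RPKM in library 3 and 342 RPKM in library 1, and daz-1, a germline RNA-binding protein gene, had 284 RPKM in library 3 and 282 RPKM in library 1. The Notch receptor gene glp-1, which keeps germline stem cells dividing, had 98.3 RPKM in library 3 and 101 RPKM in library 1. The gap between the libraries was small against these levels.

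Among P granule genes the RNA helicase gene cgh-1 had 1179 RPKM in library 3 and 1197 RPKM in library 1, car-1 had 994 RPKM in library 3 and 894 RPKM in library 1, and pgl-1 had 221 RPKM in library 3 and 234 RPKM in library 1. cgh-1 and car-1 act together in germline RNA storage granules, and pgl-1 encodes a structural protein of the P granule. Meiotic chromosome proteins were lower than these. him-3, an axis protein of meiotic chromosomes, had 105 RPKM in library 3 and 113 RPKM in library 1, followed by syp-4 of the synaptonemal complex with 95.1 RPKM in library 3 and 99.5 RPKM in library 1. htp-1, another axis protein gene, had 84.6 RPKM in library 3 and 96.95 RPKM in library 1.

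The oocyte list was led, after cey-2, by pos-1, a zinc-finger protein that sets cell fates in the early embryo, with 1010 RPKM in library 3 and 1011 RPKM in library 1. The cold-shock domain gene cey-3 had 797 RPKM in library 3 and 813 RPKM in library 1. The Pumilio-family repressor gene puf-5 had 793 RPKM in both libraries. The yolk receptor gene rme-2, named after the values were seen, had 547 RPKM in library 3 and 548 RPKM in library 1, so the receptor differed far less between the libraries than its ligands. The whole list held 1.60% of counts in library 3 and 1.61% in library 1.

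Eggshell genes stood as high. All 13 were detected, and 4 of them were among the 100 highest by RPKM. cpg-1, the partner of cpg-2 in the proteoglycan layer, had 1856 RPKM in library 3 and 1936 RPKM in library 1. The permeability barrier genes perm-4 and perm-2 had 1882 and 1802 RPKM in library 3, against 1733 and 1635 RPKM in library 1. The list held 1.84% of counts in library 3 and 1.87% in library 1. Chromosome replication and division genes, a list that includes general tubulin genes, were all detected (29 of 29). Of these, the tubulin gene tbb-2 had 1297 RPKM in library 3 and 1300 RPKM in library 1, tba-2 had 835 RPKM in library 3 and 826 RPKM in library 1, and the cyclin B gene cyb-3 had 773 RPKM in library 3 and 806 RPKM in library 1. Together the germline, oocyte, eggshell and replication lists (109 genes) held 6.30% of counts in library 3 and 6.40% in library 1. This share can hold RNA of somatic cells as well, such as that of the tubulin genes.

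Genes that the embryo itself switches on were low. Of 15 zygotic genes found, 5 were detected, and the list median was 0.481 RPKM in the mean of both libraries. The sdz class of zygotic genes, picked after its values were seen, had 17 of 36 members detected and a highest mean of 48.2 RPKM. The highest of the list was vet-2, with 10.8 RPKM in library 3 and 13.02 RPKM in library 1, followed by vet-6 with 4.45 RPKM in library 3 and 6.61 RPKM in library 1. The T-box gene tbx-38 had 3.10 RPKM in library 3 and 2.56 RPKM in library 1. The endoderm genes end-1 and end-3 stayed under 1 RPKM, with 0.197 and 0.615 RPKM in library 3 and 0.0823 and 0.545 RPKM in library 1 (both named after their values were seen). Genes of later embryos were all detected at low levels. noah-2 and noah-1, apical matrix proteins of the embryo's epidermis, had 5.52 and 4.95 RPKM in library 3 and 7.34 RPKM each in library 1, and sym-1, another matrix protein gene, had 3.93 RPKM in library 3 and 5.53 RPKM in library 1. hch-1, a protease needed for hatching, had 2.15 RPKM in library 3 and 4.47 RPKM in library 1. All 4 late genes were lower in library 3.

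Sperm and male genes marked the other end of the scale. Of 35 major sperm protein genes, the cytoskeletal proteins that drive sperm crawling, 2 were detected, and the highest, msp-31, had 1.28 RPKM in library 3 and 1.07 RPKM in library 1. msp-152 had 1.15 RPKM in library 3 and 1.08 RPKM in library 1, and msp-19 had 1.08 RPKM in library 3 and 0.899 RPKM in library 1. Their sum was 9.16 RPM in library 3 and 9.56 RPM in library 1. These genes are near-identical copies, and how multiply matching reads were counted is not given. Single values are therefore uncertain, and the sum is too low as well if such reads were left out. Of 23 other sperm genes, 5 were detected, led by ssp-10 with 5.05 RPKM in library 3 and 4.02 RPKM in library 1, spe-6 with 3.80 RPKM in library 3 and 3.86 RPKM in library 1, and spe-15 with 3.77 RPKM in library 3 and 3.75 RPKM in library 1. None of 8 genes of male neurons and seminal fluid was detected. The highest of these, try-5, a protease of seminal fluid, had 0.583 RPKM in library 3 and 0.549 RPKM in library 1, and 2 of the 8 had no count in either library. Both libraries carried the profile of the labelled sex in these lists, with yolk genes high and male genes below detection.

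**Figure D2:**
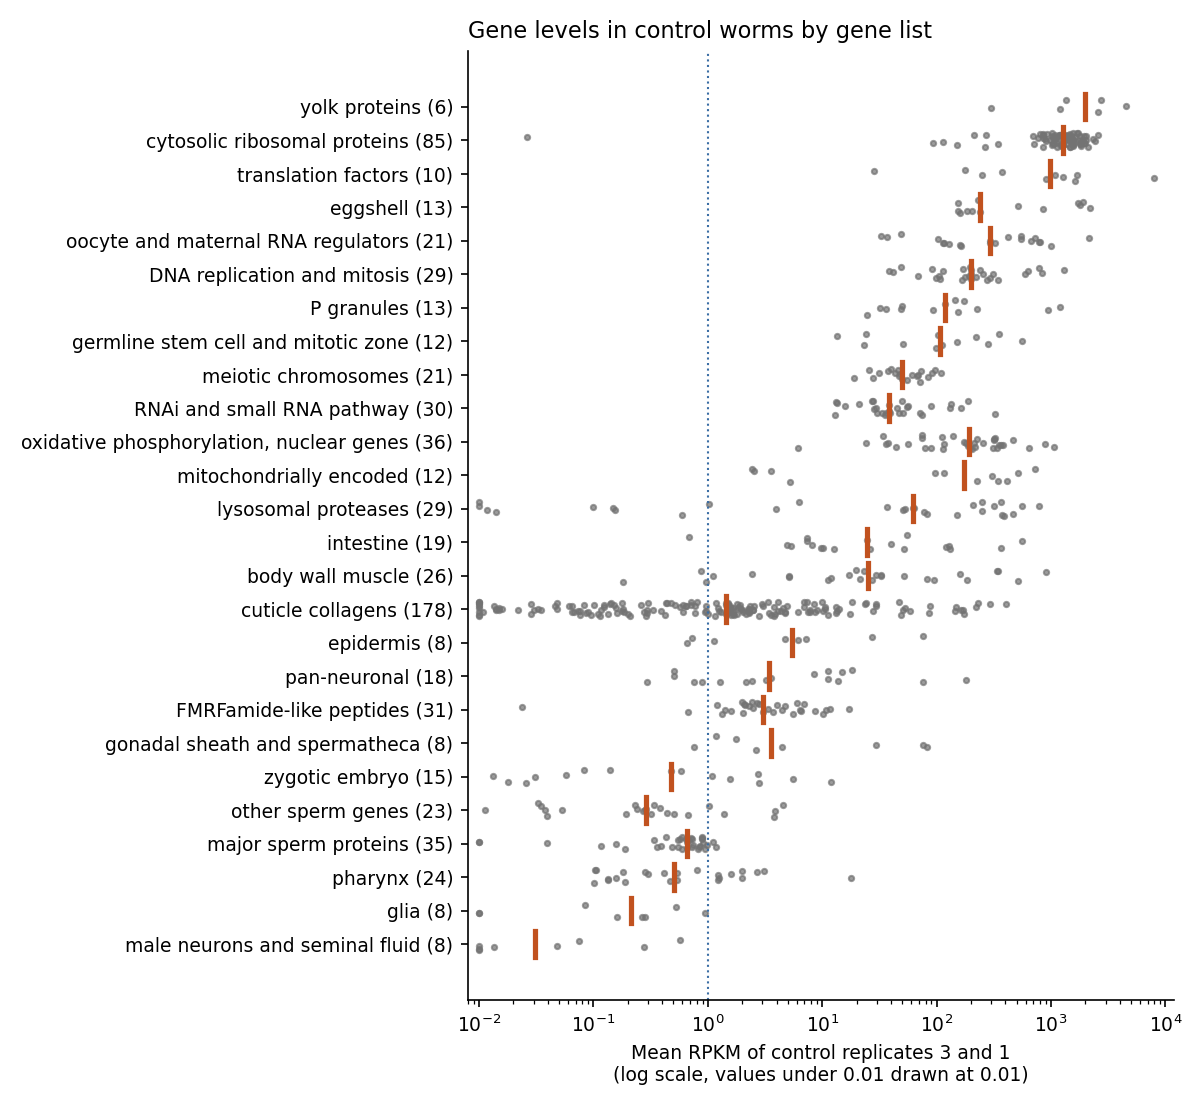
Mean RPKM of control replicates 3 and 1 on a log scale for the members of 26 gene lists. Each dot is a gene, each bar the list's median, the dotted line the detection level of 1 RPKM, and the number of genes is in brackets. Yolk (median 1971 RPKM) and ribosomal proteins (1277 RPKM) lie highest, germline and eggshell lists lie wholly above the line, and zygotic embryo, sperm, male, pharynx and glia lists have medians below it.

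The lists of somatic tissue markers that follow had lower median levels than the germline lists. Yolk genes, which the intestine expresses, stood above the germline lists, with a median of 1971 RPKM. Intestinal genes had 18 of 19 members detected, with a median of 26.1 RPKM in library 3 and 22.02 RPKM in library 1. They were led by the lysosomal protease gene cpr-6, with 640 RPKM in library 3 and 485 RPKM in library 1, by asp-1, with 443 RPKM in library 3 and 292 RPKM in library 1, and by the metallothionein gene mtl-1, with 123.1 RPKM in library 3 and 138 RPKM in library 1. The defining regulators were far lower. elt-2, the GATA factor that drives intestinal genes, had 5.68 RPKM in library 3 and 4.17 RPKM in library 1, and elt-7, its relative, had 5.67 RPKM in library 3 and 4.93 RPKM in library 1 (both named after their values were seen).

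Of 26 body wall muscle genes, 22 were detected. The actin genes act-2, act-1 and act-3, which are close copies and are also used outside muscle, had 922, 514 and 348 RPKM in library 3 and 901, 510 and 348 RPKM in library 1. In the epidermis list 6 of 8 genes were detected, led by lin-26, a zinc-finger gene of epidermal fate, with 75.2 RPKM in library 3 and 76.0 RPKM in library 1. Next came nhr-23, a receptor gene of the moulting cycle, with 25.6 RPKM in library 3 and 28.4 RPKM in library 1, and elt-1, the GATA gene of epidermal fate, with 6.41 RPKM in library 3 and 8.14 RPKM in library 1. Of 178 cuticle collagen genes, 95 were detected. col-122 had 393 RPKM in library 3 and 417 RPKM in library 1, col-181 had 275 RPKM in library 3 and 315 RPKM in library 1, and col-119 had 234.9 RPKM in library 3 and 230 RPKM in library 1. The collagen median was 1.37 RPKM in library 3 and 1.23 RPKM in library 1, so a few genes carried the class.

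Nervous system genes ranged from below detection to well above the median detected gene. Whole-worm RNA does not show which cells their reads came from. Of 18 pan-neuronal genes, 13 were detected, led by the synaptobrevin gene snb-1 with 176 RPKM in library 3 and 185 RPKM in library 1 and by maco-1 with 76.4 RPKM in library 3 and 77.1 RPKM in library 1. Next, unc-18, which acts in vesicle fusion, had 17.4 RPKM in library 3 and 19.3 RPKM in library 1. Of 16 transmitter genes, 4 were detected. tdc-1 and tbh-1, which make tyramine and octopamine and are known in the gonadal sheath as well as in neurons, had 144 and 140 RPKM in library 3 and 154 and 149 RPKM in library 1. The next, the decarboxylase gene bas-1, had 5.57 RPKM in library 3 and 6.39 RPKM in library 1. FMRFamide-like peptide genes had 29 of 31 members detected, with flp-6 highest at 16.38 RPKM in library 3 and 18.1 RPKM in library 1, then flp-28 at 13.1 RPKM in library 3 and 10.4 RPKM in library 1 and flp-22 at 12.4 RPKM in library 3 and 9.08 RPKM in library 1.

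Small tissues differed in level. None of 8 glial genes was detected, and the highest, kcc-3, had 0.898 RPKM in library 3 and 0.981 RPKM in library 1. Of 3 coelomocyte genes only cup-4 was detected, with 1.65 RPKM in library 3 and 2.16 RPKM in library 1. unc-122 and lgc-26, the other coelomocyte genes, had 0.548 and 0.546 RPKM in library 3 and 0.671 and 0.667 RPKM in library 1. In the excretory cell list exc-4 had 32.1 RPKM in library 3 and 35.5 RPKM in library 1, and exc-9 had 4.90 RPKM in library 3 and 6.46 RPKM in library 1. Of 24 pharynx genes 5 were detected, led by tni-4 with 17.4 RPKM in library 3 and 18.1 RPKM in library 1. In the gonadal sheath and spermatheca list 7 of 8 were detected, led by the innexin gene inx-8 with 81.7 RPKM in library 3 and 84.4 RPKM in library 1, the filamin gene fln-1 with 76.3 RPKM in library 3 and 74.7 RPKM in library 1, and inx-9 with 24.5 RPKM in library 3 and 34.01 RPKM in library 1. vab-3, the gene targeted in the RNAi groups, had 64 counts in library 3 and 83 counts in library 1, or 0.869 RPKM in library 3 and 0.939 RPKM in library 1.

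Some further groups were close to even between the libraries, unlike the ribosomal protein and mitochondrially encoded genes. Nuclear genes of oxidative phosphorylation were all detected (36 of 36) and held 0.993% of counts in library 3 and 1.00% in library 1. They were led by the ATP synthase genes atp-2, with 1055 RPKM in library 3 and 1051 RPKM in library 1, and H28O16.1 (now atp-1), with 865 RPKM in library 3 and 899 RPKM in library 1. Constitutive chaperones held 1.36% in library 3 and 1.41% in library 1, with hsp-1 at 1678 RPKM in library 3 and 1585 RPKM in library 1 and daf-21 (hsp-90) at 1313 RPKM in library 3 and 1408 RPKM in library 1. Of 30 genes of the RNAi and small RNA pathway all were detected, led by hrde-1, the nuclear Argonaute of inherited silencing, with 337 RPKM in library 3 and 315 RPKM in library 1. The Piwi gene prg-1 had 181 RPKM in library 3 and 196 RPKM in library 1. Of the insulin pathway 9 of 10 genes were detected. Among them, the kinase gene akt-1 had 130 RPKM in both libraries, and the adaptor gene aap-1 had 58.3 RPKM in library 3 and 61.5 RPKM in library 1.

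Some large classes were carried by a few abundant genes. Of 265 C-type lectin genes 59 were detected, and clec-91 and clec-88, the next after clec-87, had 376 and 375 RPKM in library 3 and 417 and 391 RPKM in library 1. Of 46 lysozyme and saposin-like genes, which act against bacteria in the gut, 31 were detected. lys-7 had 1494 RPKM in library 3 and 1481 RPKM in library 1, and spp-5 had 1510 RPKM in library 3 and 1401 RPKM in library 1.

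Transthyretin-related genes had 46 of 59 members detected, led by ttr-51 with 965 RPKM in library 3 and 1271 RPKM in library 1. The fatty acid and retinol binding protein gene far-2 had 1753 RPKM in library 3 and 1434 RPKM in library 1. Of 82 histone genes 41 were detected, led by the variant gene htz-1 with 552 RPKM in library 3 and 606 RPKM in library 1. The peroxiredoxin gene prdx-2 led the antioxidants with 678 RPKM in library 3 and 682 RPKM in library 1. The ferritin gene ftn-2 had 253 RPKM in library 3 and 249 RPKM in library 1, while its relative ftn-1 had 38.1 RPKM in library 3 and 71.2 RPKM in library 1. Of 40 insulin-like peptide genes 14 were detected, led by ins-19 with 29.4 RPKM in library 3 and 28.7 RPKM in library 1. Of 15 sex determination genes 12 were detected, led by fem-2, a phosphatase gene, with 95.04 RPKM in library 3 and 99.01 RPKM in library 1.

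Across the 10777 detected genes the log2 RPKM values of the libraries correlated with a Pearson r of 0.990 and a Spearman rho of 0.991. These are correlations across genes of a single pair of libraries, and genes are not independent replicates. For differences, a gene is counted as past the fold where it averaged at least 1 RPM, differed at least 2-fold and had a counting interval wholly to 1 side of no difference. Of 11245 genes at or above 1 RPM, 227 were past the fold, which is 2.02%. 73 were higher in library 3 (0.649%) and 154 were lower (1.37%). Over all 11245 genes the median log2 ratio was -0.05 with an SD of 0.34.

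The control pair lay within the range of the other replicate pairs. Each RNAi group gives 3 pairs of replicate libraries, and in those 6 pairs 181 to 774 genes were past the fold, or 1.60 to 6.60%. The SD of the log2 ratio in those pairs ran from 0.307 to 0.614. The pairs of a group share libraries and are not independent. Of the 227 genes, 128 had a larger ratio between the control libraries than in any of the 6 RNAi pairs, 37 of them higher and 91 lower in library 3. The rest differed by as much or more between some pair of RNAi replicates. The 227 genes were picked by their control ratio and not by the RNAi pairs, so this comparison favours larger control ratios by construction. The same share over all 11245 genes is not given here. Later remarks that set single genes past the fold beside the RNAi pairs carry the same limit.

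**Figure D3:**
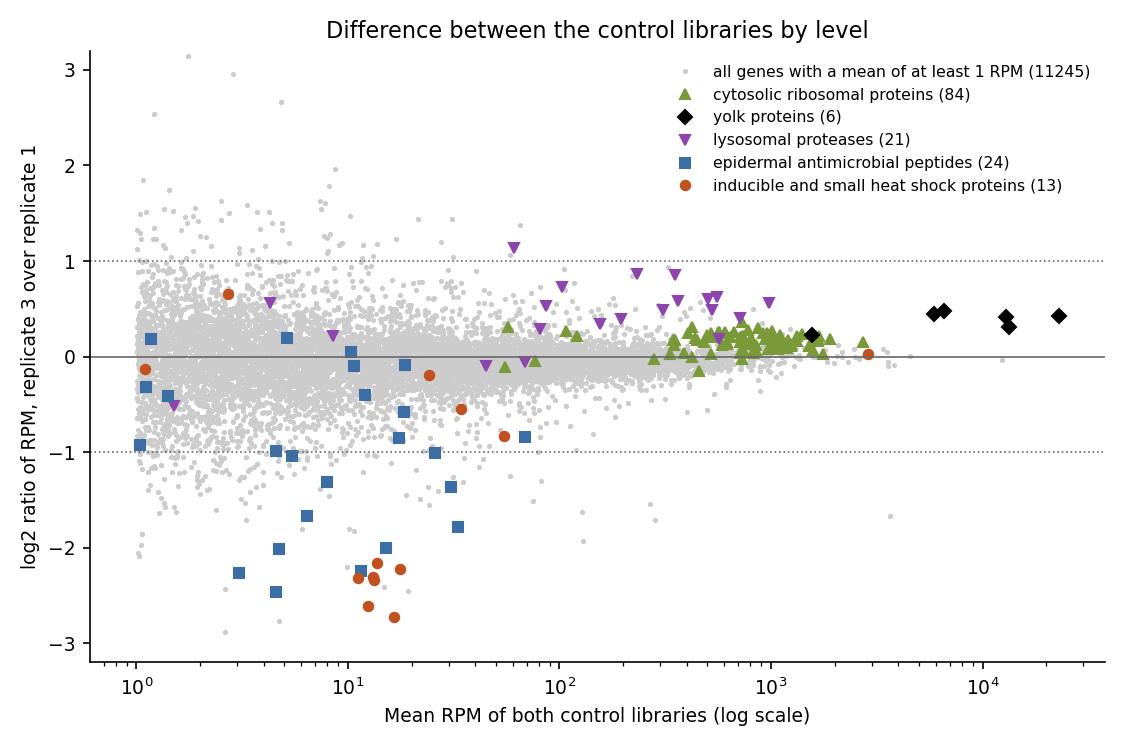
log2 ratio of RPM, control replicate 3 over replicate 1, against the mean RPM on a log scale. Each point is a gene with a mean of at least 1 RPM, 5 gene lists are coloured, and dotted lines mark 2-fold. Heat shock and antimicrobial peptide genes lie low, while yolk, ribosomal protein and most lysosomal protease genes lie slightly above 0.

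Among the gene lists, the widest difference was that of the heat shock genes, which were lower in library 3. Of 13 inducible and small heat shock genes at or above 1 RPM, 7 were past the fold, all lower in library 3, against 1.37% of all genes. The list's median log2 ratio was -2.16, against -0.05 over all genes. hsp-70, an inducible cytosolic chaperone gene on chromosome I from 9320325 to 9322519 on the minus strand, had 4.34 RPM in library 3 and 28.6 RPM in library 1, a ratio of 0.152 (0.126 to 0.182). The small heat shock gene hsp-16.2 had 3.51 RPM in library 3 and 21.4 RPM in library 1, and hsp-16.41, of the same family, had 3.74 RPM in library 3 and 18.7 RPM in library 1.

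The remaining members past the fold are the hsp-16 copies. hsp-16.1 and hsp-16.11 had 4.37 and 6.24 RPM in library 3 and 22.1 and 29.1 RPM in library 1. hsp-16.48 and hsp-16.49 had 4.40 and 5.03 RPM in library 3 and 21.7 and 22.5 RPM in library 1. These are pairs of near-identical genes, so the 4 values are not separate measurements. F44E5.5, an Hsp70-family gene on chromosome II that is not in the list, had 3.51 RPM in library 3 and 16.21 RPM in library 1. The highest member, sip-1, did not follow, with a log2 ratio of 0.03. The next by level, hsp-17 and hsp-43, had log2 ratios of -0.55 and -0.83 and were not past the fold. Without sip-1 the list held 0.0127% of counts in library 3 and 0.0306% in library 1. Between replicates of the RNAi groups these genes varied as well. In the widest of the 6 pairs the absolute log2 ratio was 3.50 for hsp-70, 3.06 for hsp-16.2, 2.86 for hsp-16.41 and 2.27 for hsp-16.11, each larger than between the control libraries. It was 2.02 for hsp-16.1 and for hsp-16.48, 2.09 for hsp-16.49 and 1.81 for F44E5.5, each smaller than between the control libraries. The constitutive chaperones had no member past the fold and a median of -0.06.

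Epidermal antimicrobial peptide genes, short secreted peptides that the epidermis makes on infection or injury, were also lower in library 3. Of 24 such genes at or above 1 RPM, 11 were past the fold, all lower in library 3, against 1.37% of all genes, and 21 of the 24 had a ratio below 1. The median log2 ratio was -0.95. The highest member, nlp-27, had 49.5 RPM in library 3 and 88.7 RPM in library 1 and was not past the fold. cnc-4, a caenacin, had 14.9 RPM in library 3 and 51.1 RPM in library 1, and nlp-29 had 17.1 RPM in library 3 and 34.4 RPM in library 1.

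Further down, cnc-6 had 4.01 RPM in library 3 and 18.98 RPM in library 1, a ratio of 0.211 (0.173 to 0.256). nlp-34 had 6.01 RPM in library 3 and 24.1 RPM in library 1. fipr-24, the member with the lowest ratio at 0.182 (0.129 to 0.251), had 1.41 RPM in library 3 and 7.78 RPM in library 1. In the widest of the 6 RNAi pairs the absolute log2 ratio was 2.51 for fipr-24 and 2.12 for nlp-34, each larger than between the control libraries. It was 2.17 for cnc-6, 1.74 for cnc-4 and 0.819 for nlp-29, each smaller than between the control libraries. The list as a whole held 216 RPM in library 3 and 431 RPM in library 1. The epidermis markers themselves differed less, with a median log2 ratio of -0.18 over 8 genes and none past the fold. Their part in the peptide difference was not tested.

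**Figure D4:**
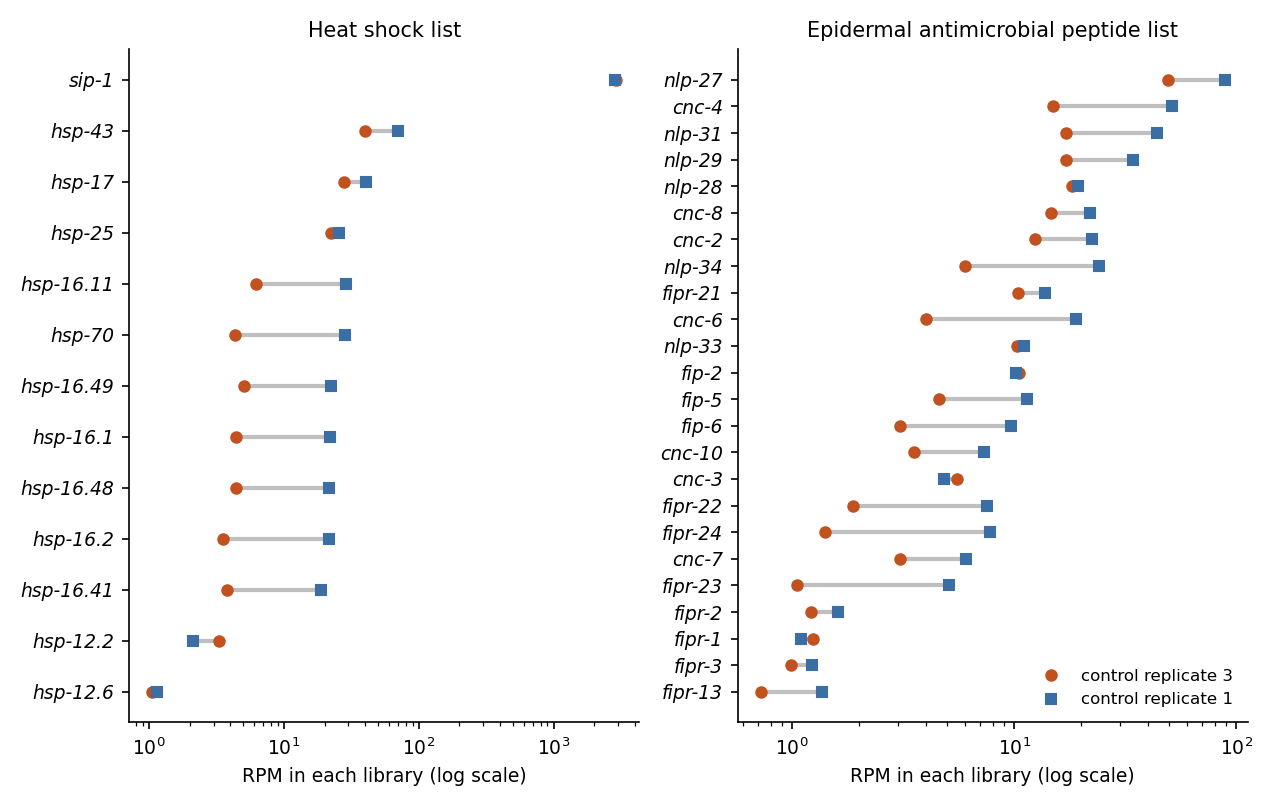
RPM on a log scale of each heat shock gene (left) and each epidermal antimicrobial peptide gene (right) with a mean of at least 1 RPM, in control replicate 3 (circles) and control replicate 1 (squares). hsp-70 and the 6 hsp-16 genes sit at 3.51 to 6.24 RPM in replicate 3 and 18.7 to 29.1 RPM in replicate 1, while sip-1 coincides, and 21 of 24 peptide genes are lower in replicate 3.

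Yolk, lysosomal and ribosomal protein genes leaned the other way by small steps. All 6 vitellogenin genes were higher in library 3, with a median log2 ratio of 0.42 and none past the fold. Of 21 lysosomal protease genes at or above 1 RPM, 18 were higher in library 3 with a median of 0.49, and 1, the cathepsin B gene cpr-5, was past the fold with 84.0 RPM in library 3 and 38.1 RPM in library 1. The aspartic protease gene asp-6, the highest of them, had 936 RPKM in library 3 and 633 RPKM in library 1, and the cathepsin L gene cpl-1 had 567 RPKM in library 3 and 369 RPKM in library 1. Of 84 ribosomal protein genes, 78 were higher in library 3, with a median of 0.16 and none past the fold. Mitochondrially encoded genes had a median of 0.28 over 11 genes, led by ctc-1, a subunit of cytochrome oxidase, with 604 RPKM in library 3 and 427 RPKM in library 1. ctc-3 had 721 RPKM in library 3 and 723 RPKM in library 1, and ctc-2 had 453 RPKM in library 3 and 373 RPKM in library 1.

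Germline genes were close to even. The median log2 ratio was 0.00 for the germline stem cell list, -0.05 for P granules, -0.11 for meiotic chromosomes, -0.01 for oocyte regulators, -0.09 for eggshell and -0.06 for replication and mitosis, and no member of these 6 lists was past the fold. These medians lie near the -0.05 of all genes, and with TMM factors the germline stem cell and oocyte medians turn to 0.04 on the other side of 0. Single members went further, down to -0.43 in the germline stem cell list and -0.27 in the meiotic list, where 18 of 21 members were below 0.

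**Figure D5:**
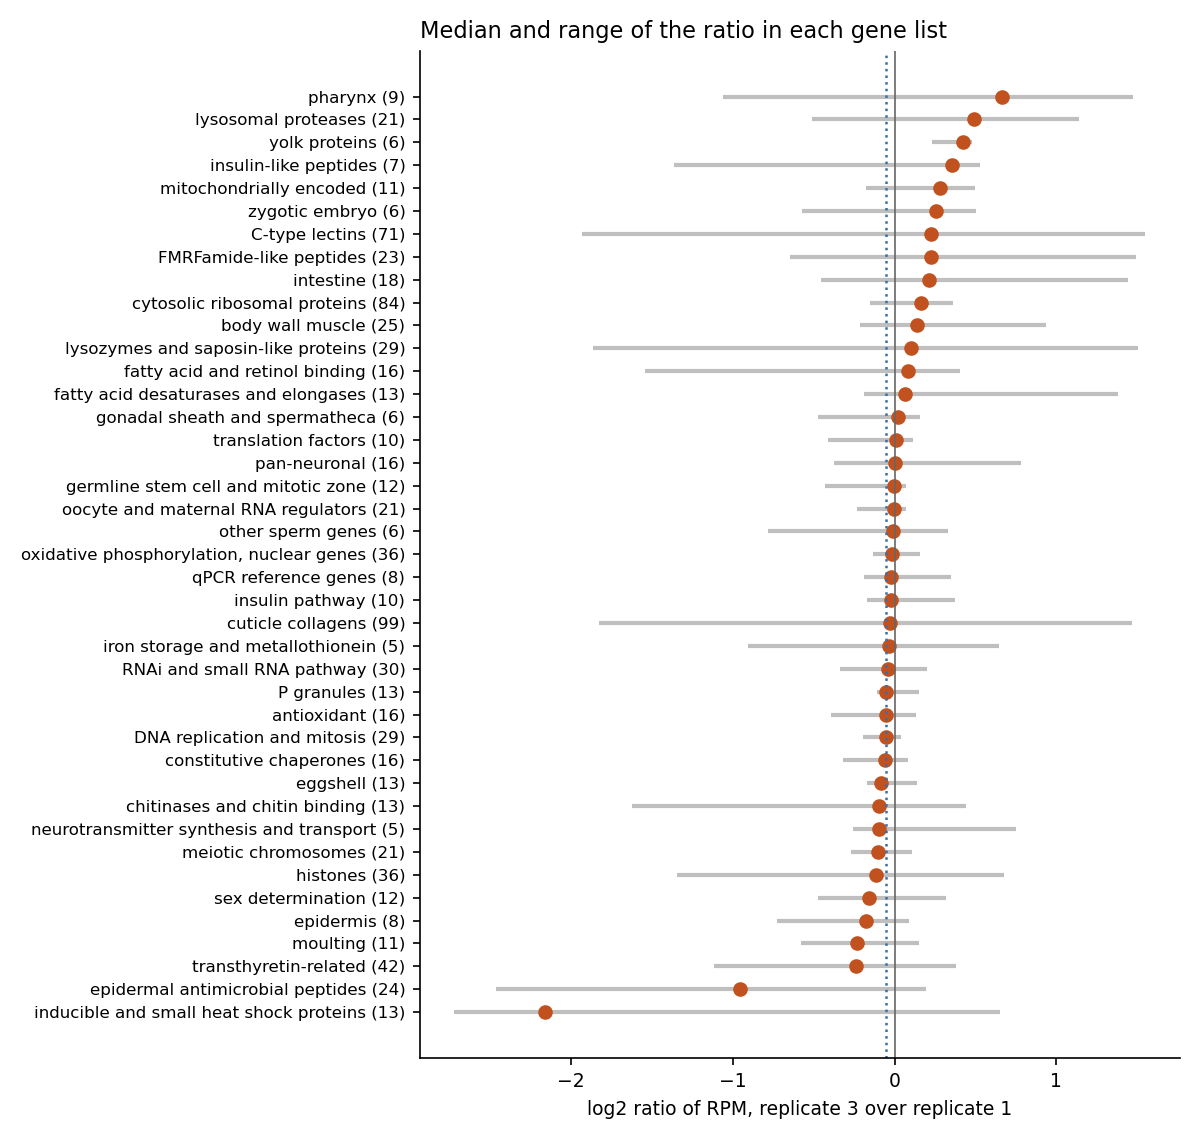
Median (circle) and range (grey bar) of the log2 ratio of RPM, control replicate 3 over replicate 1, for each gene list with at least 5 genes at or above 1 RPM, the number of such genes in brackets. The solid line marks no difference and the dotted line the median of all genes (-0.05), and medians run from -2.16 for heat shock genes to 0.67 for pharynx genes.

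Genes higher in library 3 were led, among those that averaged at least 5 RPM, by dod-21, a CUB-like domain gene on chromosome IV. It had 13.9 RPM in library 3 and 3.56 RPM in library 1, a ratio of 3.89 (3.19 to 4.78). C32H11.9 (now cld-1) had 12.61 RPM in library 3 and 3.67 RPM in library 1. Between RNAi replicates the absolute log2 ratio reached 1.94 for dod-21 and 1.97 for C32H11.9, against 1.96 and 1.78 between the control libraries. Genes of the pharynx followed, with the gland gene C49G7.3 (now phat-7) at 11.1 RPM in library 3 and 3.62 RPM in library 1.

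The pharyngeal myosin gene myo-2 had 14.98 RPM in library 3 and 5.396 RPM in library 1, and its partner myo-1 had 11.2 RPM in library 3 and 4.71 RPM in library 1. Of 9 pharynx genes at or above 1 RPM, 3 were past the fold upward (myo-2, myo-1 and phat-3) and 1 downward (abu-13), against 0.649% of all genes upward and 1.37% downward. The list median was 0.67. myo-2 and myo-1 stayed under 1 RPKM in library 1 (0.853 and 0.724 RPKM), and abu-13 in library 3 (0.806 RPKM). None of these counts as detected. The most abundant pharynx gene, tni-4, differed little, with a log2 ratio of -0.06. Absolute log2 ratios of 1.63 for myo-2 and 1.73 for myo-1 also occurred between replicates of an RNAi group.

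Several genes of intestinal uptake and fat metabolism were in this set. pept-1, the peptide transporter of the intestine, on chromosome X from 6456872 to 6461767 on the plus strand, had 31.4 RPM in library 3 and 11.6 RPM in library 1. elo-2, a fatty acid elongase gene on chromosome IV from 17466062 to 17467408 on the minus strand, had 94.1 RPM in library 3 and 36.1 RPM in library 1, a ratio of 2.61 (2.44 to 2.78). ech-7, an enoyl-CoA hydratase family gene, had 45.3 RPM in library 3 and 16.7 RPM in library 1. Other genes of fat metabolism were past the fold the other way. The ech-class gene ech-9 had 2.23 RPM in library 3 and 5.67 RPM in library 1. For acs-2 the values were 18.6 RPM in library 3 and 44.5 RPM in library 1.

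For elo-2 and pept-1, no other member of their list was past the fold. elo-2 was the only 1 of 13 desaturase and elongase genes past the fold, and the most abundant, fat-2, had 768 RPKM in library 3 and 705 RPKM in library 1. fat-1 and fat-6, which encode further desaturases, had 378 and 284 RPKM in library 3 and 395 and 318 RPKM in library 1. pept-1 was the only 1 of 18 intestinal genes past the fold. Still, 12 of these 18 were higher in library 3, and that list's median was 0.21 against -0.05 over all genes. The ratios of elo-2 and ech-7 were larger than in any RNAi pair, while pept-1 reached an absolute log2 ratio of 1.93 in those.

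The other genes of this set were F09C8.1, R08E5.3 (now rips-1), C23H3.9 and ncx-7, a sodium/calcium exchanger gene. F09C8.1 had 11.7 RPM in library 3 and 3.86 RPM in library 1, and C23H3.9 had 11.7 RPM in library 3 and 4.82 RPM in library 1. ncx-7 had 10.9 RPM in library 3 and 4.55 RPM in library 1. R08E5.3 had 11.1 RPM in library 3 and 3.81 RPM in library 1, but it overlaps a gene of 23.8 RPKM, above its own 3.19 RPKM, and reads without strand cannot be assigned between them.

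Several other lists had members past the fold. Of 71 C-type lectin genes at or above 1 RPM, 2 were higher and 2 were lower in library 3, and of 42 transthyretin-related genes 3 were lower. Over all genes, 0.649% were higher and 1.37% lower. Among those lower in library 3 were clec-266, a C-type lectin gene on chromosome X, with 53.7 RPM in library 3 and 205 RPM in library 1, and far-3, a fatty acid and retinol binding protein gene, with 137 RPM in library 3 and 400 RPM in library 1. The chitinase gene cht-1 had 62.9 RPM in library 3 and 194 RPM in library 1. All 3 ratios exceeded those of the 6 RNAi pairs. The most abundant lectin gene, clec-87, had 1710 RPKM in library 3 and 1797 RPKM in library 1. In the fatty acid and retinol binding list the most abundant gene, far-2, had a log2 ratio of 0.29, and the next, lbp-9, had 845 RPKM in library 3 and 843 RPKM in library 1.

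Of 99 cuticle collagen genes at or above 1 RPM, 6 were past the fold higher in library 3 and 2 lower. Over all genes, 0.649% were higher and 1.37% lower. The collagen list had a median of -0.03 that turns to 0.01 with TMM factors. The widest of the higher collagen genes, col-161, had 2.73 RPM in library 3 and 0.986 RPM in library 1. Between RNAi replicates the ratio of col-161 reached 4.56 on the absolute log2 scale. Of 29 lysozyme and saposin-like genes, 1 was higher, lys-10 with 4.04 RPM in library 3 and 1.42 RPM in library 1, and 2 were lower. These counts, too, stand against 0.649% higher and 1.37% lower over all genes.

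Smaller members past the fold were spp-12, a saposin-like gene, with 0.46 RPM in library 3 and 1.67 RPM in library 1, col-183, with 4.70 RPM in library 3 and 16.7 RPM in library 1, and ttr-18, a transthyretin-related gene, with 10.1 RPM in library 3 and 21.8 RPM in library 1. The insulin-like peptide gene ins-2 had 1.08 RPM in library 3 and 2.79 RPM in library 1, and the histone gene his-18 had 0.657 RPM in library 3 and 1.67 RPM in library 1. Higher in library 3 were aqp-8, an aquaporin gene of the excretory cell, with 13.04 RPM in library 3 and 5.72 RPM in library 1, and the neuropeptide gene flp-4, with 1.54 RPM in library 3 and 0.548 RPM in library 1. Among genes that averaged at least 5 RPM, the remaining ones lower in library 3 with the widest ratios were ZK970.7 (now srlf-34) and C18D11.6. ZK970.7 had 5.91 RPM in library 3 and 32.4 RPM in library 1, and C18D11.6 had 4.70 RPM in library 3 and 25.1 RPM in library 1. Between RNAi replicates both reached wider ratios, 2.58 and 2.62 on the absolute log2 scale. Under 5 RPM, F57H12.6 and ora-1 had the lowest ratios of all genes past the fold. They had 0.624 and 1.22 RPM in library 3 and 4.60 and 8.27 RPM in library 1.

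Of the 227 genes past the fold, 51 belong to at least 1 of the 48 gene lists and 176 to none. The share of all tested genes that belong to a list is not given here, so these counts carry no comparison. The median mean level of the genes past the fold was 3.61 RPM, so the count is mostly one of low genes.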

How the data were processed

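RNA-seq of whole N2 hermaphrodites was analysed for 2 control libraries, and 6 RNAi libraries gave replicate spreads only. Per the labels' protocols, total RNA was extracted with QIAzol and libraries were made with TruSeq RNA v2, which keeps no strand. The tools were TopHat2 2.1.0, featureCounts 1.5.0 and bcl2fastq 1.8.4, on build WBcel235, per the submitters' processing notes. How multiply matching reads were counted, which annotation release was used and what was filtered is not given in the sources used here. The authors deposited counts, RPM (each count scaled to its column total) and RPKM (RPM per kilobase of gene length).

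From these, means, SDs and ratios of RPM with exact conditional binomial intervals were computed in Python 3.11.15 with scipy 1.17.1. The ratio computation was tested on simulated data. Gene types and coordinates came from an Ensembl annotation of build WBcel235, which holds 46484 of the 46739 IDs, and 210 IDs have no symbol in the table. TMM factors (edgeR 4.0.16), DESeq2 1.42.0 size factors and other minimums, folds and pseudocounts were tried as alternatives. Samples were grouped by their titles.

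The members, lists and rules were chosen with earlier results of these data known. Genes were named from the 20 highest by mean RPKM, the 3 highest of each list, the 12 widest ratios each way at a mean of at least 5 RPM, the member of each list past the fold with the widest ratio, and all members of lists of 6 or fewer. Any others were chosen after their values were seen. Not every gene of this rule is reported here.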

Additional observations from a re-analysis of the deposited data

How the results depend on the processing

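Direction under other scalings and pseudocounts was checked for the list medians and for 24 genes, the widest ratios each way at 5 RPM. None of these genes changed direction, but none could have. Each scaling moves all ratios by 1 common small step, and a pseudocount keeps a ratio on its side of no difference. Their direction was therefore not put to a test. No list median more than 0.1 (log2) from that of all genes changed direction either. The scaling step was too small to turn those medians, so only the run with no filter bears on them. Other genes described were not rerun, and another minimum or fold leaves a gene's ratio as it is. List medians close to 0 did change direction, such as the germline stem cell list, at 0.04 with TMM and with DESeq2 factors. The count of 227 genes past the fold came to 221 with TMM factors, 220 with DESeq2 size factors and, as an alternative chosen after seeing the data, 230 with ribosomal RNA left out of the library totals. It was 453 at a mean of at least 0.2 RPM, 516 with no minimum, 89 at 5 RPM, 862 at 1.5-fold, 48 at 3-fold, 140 on log2(RPM + 0.5) and 87 on log2(RPKM + 1), where fewer or more low genes can pass by construction. At 5 RPM the share past the fold was 1.08%. On log2(RPKM + 1) the ratios of myo-2, myo-1, C23H3.9 and ncx-7 no longer reached 2-fold. With no filter and log2(RPM + 0.5), list medians were -0.82 for heat shock genes and -0.30 for antimicrobial peptides. Summed RPKM in place of RPM gave 5.03, 24.7 and 59.3% for the 10, 100 and 1000 leading genes, and summed TPM gave 1.88% for yolk, 16.14% for ribosomal proteins, 1.40% for oocyte genes and 1.53% for eggshell. With library 1 left out 11048 genes were detected, and with library 3 left out 11160, against 10777 in both. Levels with 1 library left out are those of the other library. Genes under about 1 RPM rest on few counts. No paired analysis was possible because no test was made and the control group is described alone.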

Other observations

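The levels differed by chromosome. Among protein-coding genes, 63.5% were detected on chromosome I, 52.1% on II, 68.6% on III, 52.7% on IV, 37.5% on V and 51.6% on X, and all 12 of the mitochondrial genome. The median mean RPKM of the detected genes was 36.5 on I, 24.2 on II, 35.8 on III, 25.8 on IV, 16.414 on V and 8.25 on X. The X chromosome held 9.12% of counts in library 3 and 8.19% in library 1, and without its 5 yolk protein genes 4.55% in library 3 and 4.70% in library 1.

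Chemoreceptor genes were mostly below detection in whole-worm RNA. Of 1628 genes in 22 chemoreceptor classes, 10 were detected and 851 had no count in either library, and their sum was 91.8 RPM in library 3 and 103 RPM in library 1. Of 56 F-box genes of the fbxb class at or above 1 RPM, 15 were past the fold, all lower in library 3, against 1.37% lower over all genes, with a median log2 ratio of -0.69. In the UDP-glucuronosyltransferase class (ugt), 6 of 47 were lower past the fold and 1 was higher, and of 51 cytochrome P450 (cyp) genes 4 were lower, against 0.649% higher and 1.37% lower over all genes. These classes were picked after their values were seen.

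The most abundant gene past the fold was the ribosomal RNA gene rrn-3.1, with 1753 RPM in library 3 and 5553 RPM in library 1. All ribosomal RNA genes together held 0.221% of counts in library 3 and 0.612% in library 1. A pseudogene without a symbol, WBGene00004677, had 132 RPM in library 3 and 432 RPM in library 1. It is not part of that share, but it lies close to rrn-3.1 on chromosome I (from 15060299 and from 15064838). The log2 ratios were also close, -1.71 for the pseudogene and -1.66 for rrn-3.1, so it may not be a separate difference. The part of ribosomal RNA in the other differences was not tested beyond the scaling given above. The non-coding RNA gene tts-1 had 524 RPKM in library 3 and 555 RPKM in library 1.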
